A study of Mus musculus with 16 samples.

Results

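The cytosolic ribosomal protein genes encode the protein subunits of the ribosome that translates nuclear messages. They were taken from the gene count table of mouse quadriceps by symbol: names that start with Rpl or Rps and a digit, plus Rplp0, Rplp1, Rplp2 and Rpsa, without the S6 kinases (Rps6k), names that contain -ps, and Rps19bp1. Of 98 symbols with such a start, 84 of the 13320 genes in the table remained, 51 of them named for the large subunit and 33 for the small subunit. They lie on 19 chromosomes, with 14 on chromosome 7. The muscle paralogue Rpl3l was kept among them and is set beside Rpl3. Fau and Rack1 also encode parts of this ribosome but fall outside the naming rule, and they are given separately.

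All mice were CD2F1 males, 8 weeks old at the start, and no genetic change is given for any group. C26 cells derive from a colon carcinoma of the mouse and are widely used to study cancer-related muscle loss. In the splenic C26 group they had been injected into the spleen as a model of spread to the liver. The sham group was operated on and received saline. In the subcutaneous C26 group the same cells had been placed under the skin. What the control group received is not stated in the labels. Each group had 4 libraries. Nothing in the labels ties each library to an animal of its own, so the p-values refer to the spread between samples, and that spread may be technical. Splenic C26 and sham share a title prefix, and subcutaneous C26 and control share a different one. Tumour and tumour-free libraries were therefore compared within a prefix, and for sham against control the group and the prefix cannot be told apart.

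Ribosomal proteins assemble with ribosomal RNA in the nucleolus into a large and a small subunit, and cells make them in similar amounts. Many of their messages begin with a C followed by an unbroken run of pyrimidines, the terminal oligopyrimidine or TOP element, through which the kinase mTORC1 and the binding protein LARP1 adjust their translation and stability. In skeletal muscle, ribosome number is known as a limit on protein synthesis, and Rpl3l is a form of the core protein Rpl3 that is made mainly in striated muscle.

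The annotated start sites of 6 genes the results turn on are shown. They set genes with a C inside a pyrimidine run at that start beside genes without one there. RefSeq promoters of build GRCm38.p6, which run from 250 bases before to 50 bases after the annotated start, were found for 63 of the 84 genes. Rpl3 was among the genes without an entry. Windows of 30 bases are printed 5′ to 3′ on the gene's own strand, the annotated start is base 11, and capitals mark the longest run of C and T that reaches to within 10 bases of it.
Rps27, chr3:90213629-90213658 (minus strand): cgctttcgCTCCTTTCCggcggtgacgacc
Rps6, chr4:86857348-86857377 (minus strand): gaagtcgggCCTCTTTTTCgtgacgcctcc
Rplp2, chr7:141447641-141447670 (plus strand): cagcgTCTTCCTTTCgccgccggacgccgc
Rpl22l1, chr3:28805498-28805527 (plus strand): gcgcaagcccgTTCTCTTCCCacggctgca
Rpl10a, chr17:28328461-28328490 (plus strand): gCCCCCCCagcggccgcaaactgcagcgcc
Rpl3l, chr17:24727816-24727845 (plus strand): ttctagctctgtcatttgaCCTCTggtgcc
The first 3 have a C at the annotated start inside a run of 9 or 10 pyrimidines. In Rpl22l1 a run of 10 begins just after it. Rpl10a has a run of 7 ahead of its start, and Rpl3l has one of 5 bases downstream of it.

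Such runs were more frequent at these genes than elsewhere. Runs of at least 8 pyrimidines that reached to within 10 bases of the start were counted. They were found in 27 of 63 ribosomal protein promoters (42.9%), against 13.8% of 26955 other RefSeq promoters. The first base was a C in 34.9% against 16.1%. CCGGAAG, the letters of an ETS-family or GABP-type site read on both strands of the whole 300-base window, was present in 38.1% against 9.06%. AAGATGG, a YY1-type core, was in 14.3% against 6.46%, and CTTTCC, which can lie within a pyrimidine run, was in 46% against 26.3%. CACGTG, the E-box bound by Myc, was in 7.94% against 7.24%, and TATAAA was in 9.52% against 14.2%. These matches describe letters in an annotated window, and 10 of the 63 genes have more than 1 annotated start.

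Total counts were 25.9 to 34.9 M per library. The 10 most abundant genes took 18.8% to 30.1% of them. Levels are given as counts per 1e6 scaled by the trimmed mean of M-values (TMM), here CPM, with scaling factors of 0.802 to 1.21. Skeletal muscle fibre markers summed to 99070 to 253430 CPM, which fits the labelled tissue, and markers of T, B and NK cells were not in the table. Some libraries carried transcripts of other tissues. Neutrophil and marrow granule markers summed to 203 CPM in splenic C26 replicate 3, against 4.44 to 54.7 CPM elsewhere, and proliferation and red blood cell markers stood at 71.8 and 131 CPM in subcutaneous C26 replicate 4, against at most 13.3 and 46 CPM elsewhere.

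Most ribosomal protein genes were higher in quadriceps of mice with C26 tumours. In splenic C26 against sham, 76 of 84 (90.5%) passed the test at an adjusted p under 0.05 and were higher, and 0 were lower. Over all genes tested, 28.1% were higher and 23.9% lower. Their median log2 fold change was 0.69, against -0.029 over all 13320 genes. In subcutaneous C26 against control, 75 of 84 (89.3%) were higher and 0 lower, beside 27% of all genes higher and 23.1% lower, and the median log2 fold change was 0.64, against -0.022 over all genes. The test was edgeR's quasi-likelihood test, adjusted over all genes. At an unadjusted p under 0.05, 78 and 77 members passed, and DESeq2 also called 0 lower in both comparisons, whereas limma-voom and limma-trend called Rpl3l lower in subcutaneous C26. Bulk RNA gives relative amounts, so fewer cells of a type and less RNA per cell cannot be told apart.

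The shift was broad and of moderate size. In splenic C26, 63 of 84 members had a log2 fold change between 0.5 and 1, and 7 were above 2-fold. In subcutaneous C26 these counts were 58 and 7. The same 75 genes were higher in both comparisons, 8 in neither, and Rpl35a, a large-subunit protein, passed only in splenic C26 (log2 fold change 0.51, adjusted p = 0.00534, against 0.31 with adjusted p = 0.0614 in subcutaneous C26; the difference of 0.20 did not pass, adjusted p = 0.937). Its splenic C26 call was lost with total counts (0.27), and in subcutaneous C26 it passed in 5 of 30 alternative settings: the fit of the 8 libraries of that comparison alone, without splenic C26 replicate 1 or 3, without subcutaneous C26 replicate 3, and without the lowest library of each tumour group (0.29 to 0.36). Across the 84 genes the log2 fold changes of the tumour comparisons, which have no library in common, had a Pearson r of 0.96 and a Spearman rho of 0.88, a description over genes that are not independent and were sequenced together. By subunit, 45 of 51 large-subunit and 31 of 33 small-subunit genes were higher in splenic C26, with medians of 0.70 and 0.68. In subcutaneous C26, 44 of 51 and 31 of 33 were higher, with medians of 0.64 and 0.65.

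The counts moved with the scaling. With upper-quartile scaling, 66 members rose and 2 fell in splenic C26, and 58 rose and 2 fell in subcutaneous C26. That scaling set the median of all genes to -0.24 and -0.26, the members' medians to 0.46 and 0.40, and the share of all calls that were higher to 38.5% and 34.9%, against 54% and 53.9% with TMM. With total counts alone 52 members rose and 2 fell in splenic C26 and 50 rose and 1 fell in subcutaneous C26, the median of all genes -0.24 and -0.22, and the share of higher calls 35.8% and 36.2%. With TMM and both other scalings the members' median lay 0.66 to 0.72 above that of all genes.

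**Figure D1:**
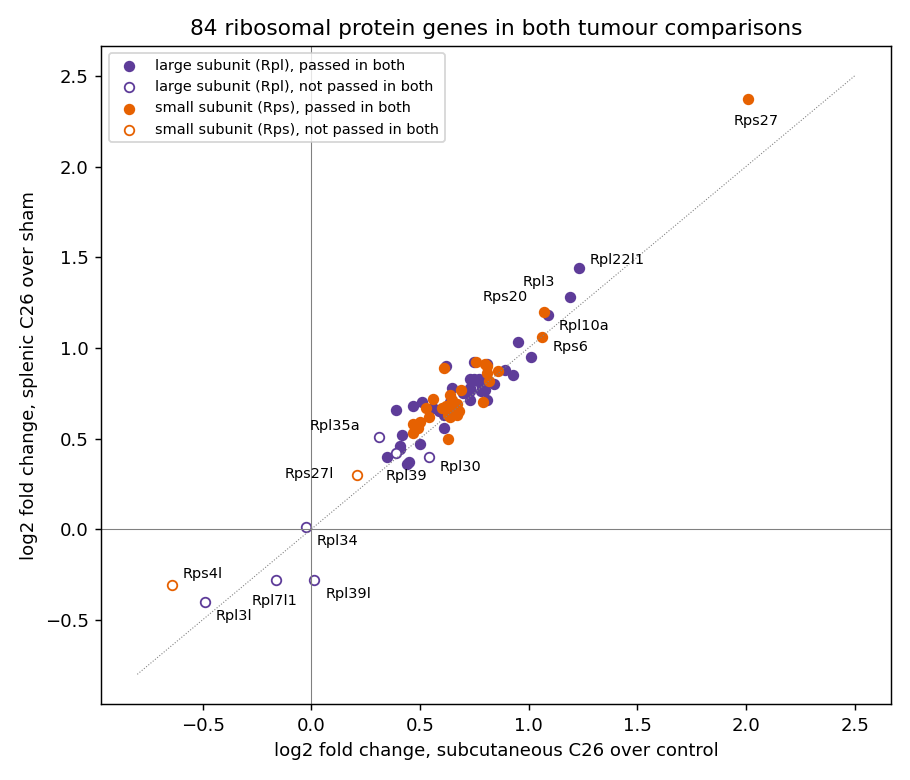
Each point is 1 of the 84 genes, with its log2 fold change in subcutaneous C26 over control on the horizontal axis and in splenic C26 over sham on the vertical axis. Colours give the subunit in the gene's name, filled points passed as higher in both comparisons, and the dotted line marks equal values. Most genes lie between 0.4 and 1.2 on both axes, Rps27 lies apart at 2.37 in splenic C26 and 2.01 in subcutaneous C26, and Rpl3l, Rps4l and Rpl7l1 lie below 0 on both.

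Libraries of the tumour groups differed in how far the genes had moved. Summed over the 84 genes, splenic C26 libraries 1 to 4 held 9913, 15058, 17341 and 17353 CPM, against 9355, 8942, 9189 and 9258 CPM in sham. Subcutaneous C26 libraries held 16278, 16278, 12941 and 15428 CPM, against 9344, 9853, 9951 and 9431 CPM in control. Neither pair of groups overlapped, and splenic C26 replicate 1 stood close to sham. As a share of all gene counts the members took 1.37 ± 0.223% in splenic C26, against 1.0 ± 0.0555% in sham, and 1.43 ± 0.292% in subcutaneous C26, against 1.03 ± 0.122% in control (SD, n = 4 each). On that unscaled measure subcutaneous C26 replicate 3, at 1.04%, lay within the control range of 0.874% to 1.15%.

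The same libraries were low for nearly every gene. Splenic C26 replicate 1 was the lowest of its group for 80 of 84 members, and its median log2 difference from the sham mean was 0.13, against 0.70, 0.91 and 0.92 in replicates 2, 3 and 4. Subcutaneous C26 replicate 3 was the lowest for 76 of 84, with a median difference from the control mean of 0.38, against 0.76, 0.73 and 0.68 in replicates 1, 2 and 4. Because of replicate 1, only 55 members had splenic C26 values wholly above sham, where 21.1% of all genes did, and 72 had subcutaneous C26 values wholly above control, where 25.2% of all genes did. Without both of these libraries 78 members rose and 2 fell in splenic C26, and 77 rose and 2 fell in subcutaneous C26. Over all genes in that setting, 4329 rose and 4366 fell in splenic C26, and 4134 rose and 4198 fell in subcutaneous C26.

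An earlier analysis of these data named splenic C26 replicates 1 and 3, subcutaneous C26 replicate 4 and control replicate 1 as carrying other-tissue transcripts. Splenic C26 replicate 1 did not stand apart here in summed neutrophil (11.8 CPM), hepatocyte (315 CPM), red blood cell (14.3 CPM) or proliferation (3.1 CPM) markers. Without the 4 named libraries 78 members were higher in splenic C26 and 72 in subcutaneous C26, beside 3754 and 3134 of all genes. The members' median in splenic C26 was then 0.82, against 0.69 with all libraries, and replicate 1 had the smallest rise of its group. Some other marker lists differed between tumour and tumour-free groups. Over all genes 28.1% were higher and 23.9% lower in splenic C26, and 27% higher and 23.1% lower in subcutaneous C26. Lists of 3 to 12 markers are short for a comparison with these shares. Fibro-adipogenic progenitor markers summed to 920 to 3020 CPM in splenic C26, against 2899 to 3749 CPM in sham, and to 903 to 1736 CPM in subcutaneous C26, against 2182 to 4219 CPM in control, with 5 of 7 markers lower in each comparison and none at 0. Of 12 neutrophil and marrow granule markers, 10 were higher in splenic C26 (6.54 to 203 CPM summed, against 4.44 to 6.69 CPM in sham, where Camp, Ltf and Mpo were at 0; median log2 fold change 5.66) and 0 passed in subcutaneous C26 (5.34 to 38.5 CPM, against 4.47 to 54.7 CPM in control). Of 10 hepatocyte markers, 7 were higher in splenic C26 (116 to 365 CPM, against 47.7 to 310 CPM in sham; median 4.40), whereas 1 was higher and 8 were lower in subcutaneous C26 (207 to 419 CPM, against 145 to 383 CPM in control; median -5.10), and the summed levels overlapped. Red blood cell markers were higher for 2 of 3 in splenic C26 (11.6 to 46 CPM, against 4.04 to 5.72 CPM in sham) and 1 of 3 in subcutaneous C26 (8.6 to 131 CPM, against 3.7 to 14.1 CPM in control). Of 7 endothelial markers, 4 were higher and 1 was lower in splenic C26, and 1 was higher and 3 were lower in subcutaneous C26. The part of these lists in the members' values was not tested.

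**Figure D2:**
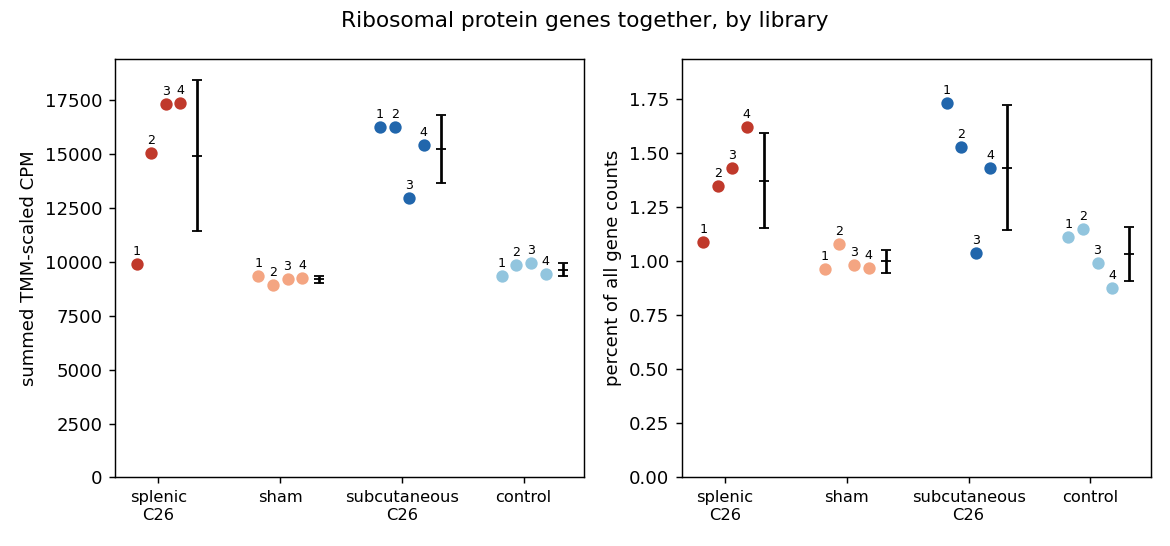
Points are libraries, numbered by replicate, with the group mean and SD beside them (n = 4 each). The left panel gives the summed TMM-scaled CPM of the 84 genes and the right panel their percent of all gene counts. Splenic C26 replicate 1, at 9913 CPM, and subcutaneous C26 replicate 3, at 12941 CPM, are the lowest tumour libraries, and the 8 tumour-free libraries sit between 8942 and 9951 CPM.

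**Figure D3:**
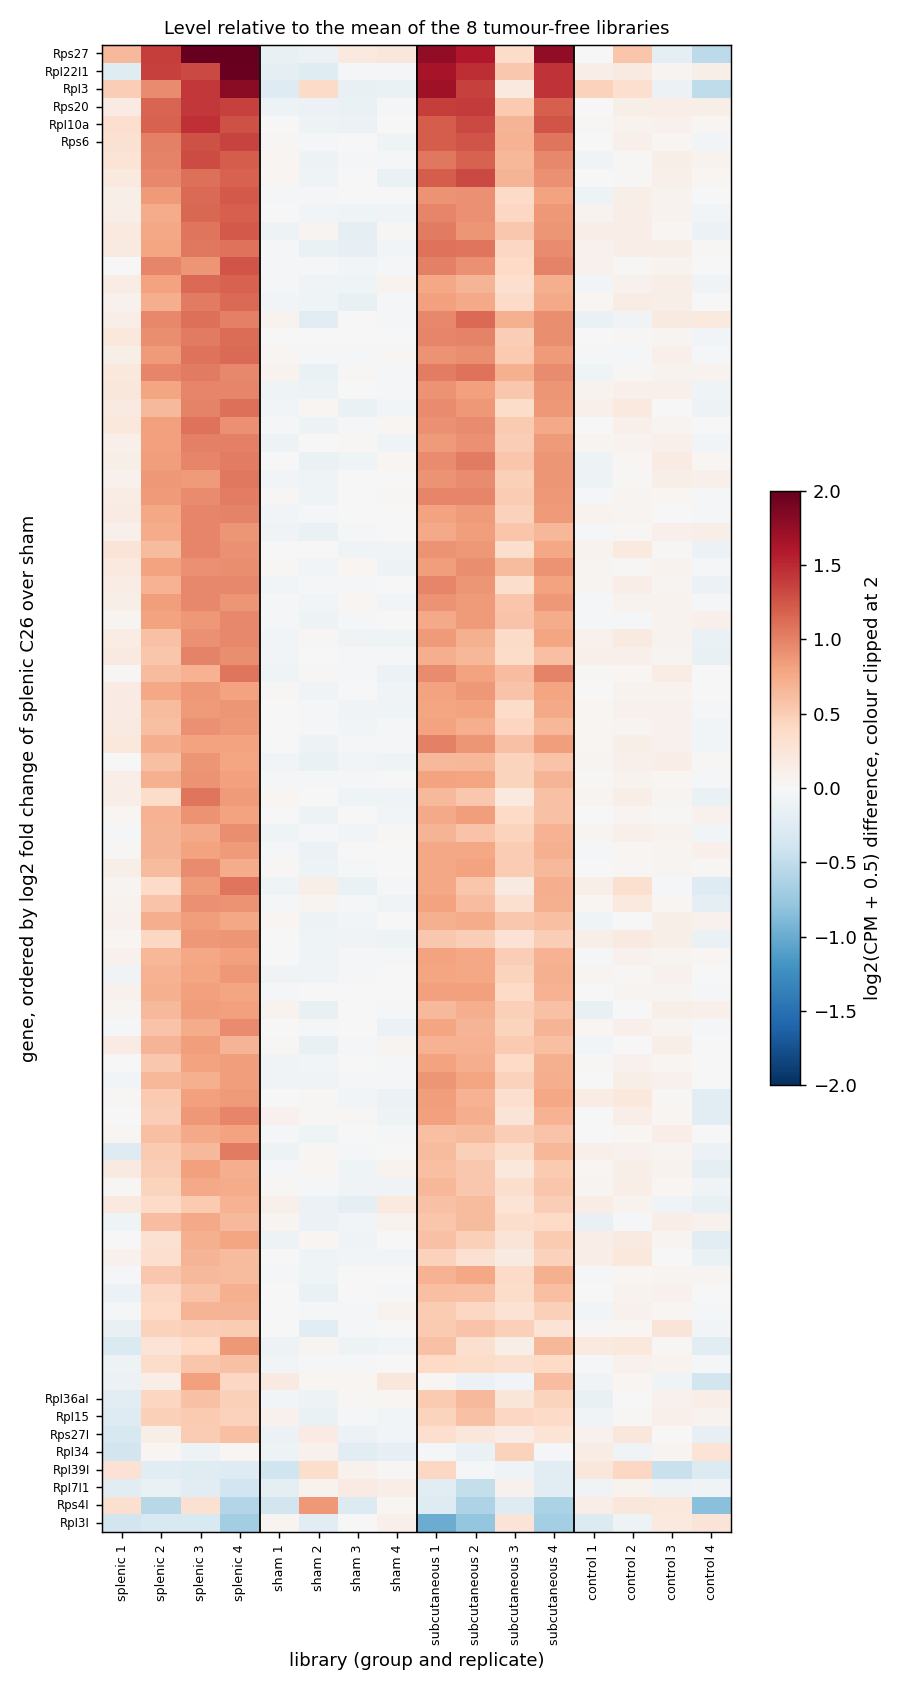
Rows are the 84 genes, ordered by their log2 fold change in splenic C26 over sham with the top 6 and bottom 8 named, and columns are the 16 libraries by group. Colour gives log2(CPM + 0.5) minus the mean of the 8 tumour-free libraries, clipped at 2 in either direction. Splenic C26 replicate 1 is pale in nearly every row, with a median of 0.13 over sham, and the bottom rows from Rpl34 to Rpl3l lack the shared rise.

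Rps27, a zinc-finger protein of the small subunit, had the largest fold change of the 84 in both comparisons. It had 1.31, 2.53, 5.88 and 4.85 CPM in splenic C26, against 0.547, 0.563, 0.83 and 0.857 CPM in sham. The groups did not overlap, and the log2 fold change was 2.37 ± 0.51 (SE, adjusted p = 0.00176). In subcutaneous C26 it had 3.47, 3.02, 0.994 and 3.48 CPM, against 0.666, 1.21, 0.509 and 0.305 CPM in control, where replicate 3 of the tumour group lay below the highest control (2.01 ± 0.51, adjusted p = 0.00473). These values rest on 9 to 125 counts per library, far under most other small-subunit genes. Of its 75-base transcript windows, 42.4% occur also in other genes.

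Rpl22l1, the paralogue of the large-subunit protein Rpl22, came second. Splenic C26 libraries had 15.6, 48.3, 46.7 and 74 CPM, against 16.1, 15.6, 18 and 18.2 CPM in sham. Replicate 1 lay within the sham range and the other 3 were well above it (log2 fold change 1.44 ± 0.33, adjusted p = 0.00259). Subcutaneous C26 libraries had 58.7, 52.2, 27.2 and 51 CPM, all above the 20.3, 21.1, 19.3 and 20 CPM of control (1.23 ± 0.33, adjusted p = 0.0068).

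Rps6, the small-subunit protein phosphorylated by the S6 kinases below mTORC1, rose by the same amount in both models. It had 92.5, 151, 183 and 192 CPM in splenic C26, against 76.2, 74.1, 75 and 70.8 CPM in sham (log2 fold change 1.06 ± 0.18, adjusted p = 0.000461). In subcutaneous C26 it had 174, 181, 122 and 159 CPM, against 74.7, 80.9, 77.4 and 71.9 CPM in control (1.06 ± 0.18, adjusted p = 0.000474). No tumour library reached down to the tumour-free range.

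Rps20, a protein of the small subunit's head, and Rpl10a, a protein of the large subunit's L1 stalk, showed the same layout. Rps20 had 113, 227, 269 and 262 CPM in splenic C26, against 94.3, 92.7, 92.5 and 99.5 CPM in sham (log2 fold change 1.20, adjusted p = 0.000833). It had 265, 266, 146 and 231 CPM in subcutaneous C26, against 100, 110, 111 and 110 CPM in control (1.07, adjusted p = 0.00174). Rpl10a reached 138 ± 40.6 CPM in splenic C26, against 61.1 ± 2.95 CPM in sham, and 141 ± 25.9 CPM in subcutaneous C26, against 65.9 ± 1.36 CPM in control (SD, n = 4 each), with log2 fold changes of 1.18 and 1.09 and adjusted p-values of 0.000312 and 0.000495. In both genes the tumour and tumour-free groups did not overlap.

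Of the acidic stalk, which recruits translation factors to the ribosome, the messages of all 3 proteins were higher, by unequal amounts. Rplp2 had 90.5, 151, 184 and 196 CPM in splenic C26, against 81.6, 81.2, 83 and 83.4 CPM in sham, and 156, 158, 109 and 146 CPM in subcutaneous C26, against 77.9, 91, 87.4 and 82.6 CPM in control. Its log2 fold changes were 0.92 and 0.75 (adjusted p = 0.00136 and 0.00492). Those of Rplp0, the base of the stalk, were 0.65 and 0.59 (adjusted p = 0.00294 and 0.00545). Rplp1 changed least, by 0.46 and 0.41 (adjusted p = 0.012 and 0.0223). The call on Rplp1 did not hold in either comparison with upper-quartile scaling (0.24 and 0.17) or total counts (0.22 and 0.23), and in subcutaneous C26 it was lost without subcutaneous C26 replicate 1, 2 or 4 or control replicate 1 or 4, where the log2 fold change was 0.37 to 0.40. Rpsa, the small-subunit protein also known as the laminin receptor, rose by 0.68 and 0.62 on the log2 scale (adjusted p = 0.00296 and 0.00565).

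Rpl5 and Rpl11 form a complex with 5S ribosomal RNA that binds Mdm2 when assembly is disturbed. Rpl5 had 104, 179, 176 and 203 CPM in splenic C26, against 93.8, 91.4, 98.1 and 97 CPM in sham (log2 fold change 0.80, adjusted p = 0.00157), and 182, 189, 136 and 181 CPM in subcutaneous C26, against 90.9, 99.4, 106 and 105 CPM in control (0.78, adjusted p = 0.00195). Rpl11 had 94, 155, 177 and 176 CPM in splenic C26, against 82.1, 86.8, 88.9 and 82.8 CPM in sham (0.82, adjusted p = 0.00118), and 159, 166, 123 and 158 CPM in subcutaneous C26, against 91.4, 91.8, 94.5 and 84.1 CPM in control (0.74, adjusted p = 0.00229). Neither gene's groups overlapped.

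Rpl3 rose in both models, whereas Rpl3l had lower means in both and did not pass. Both encode the same core position of the large subunit, near the peptidyl transferase centre, and muscle is known to favour Rpl3l. Their coding sequences from GENCODE M21 aligned over 1205 bases with 902 identical (74.9%). The first 60 coding bases, from the ATG, are shown because the capitals mark the 13 positions at which the genes differ, which is what lets reads be assigned to one or the other.
Rpl3l: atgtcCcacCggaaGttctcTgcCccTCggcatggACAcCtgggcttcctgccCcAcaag
Rpl3: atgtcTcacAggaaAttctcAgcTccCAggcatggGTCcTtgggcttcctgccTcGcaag
No 75-base window was common to the pair, and 75 bases was the read length. Rpl3l had 0% of its windows in any other gene, and Rpl3 had 64%, in 8 pseudogenes.

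Rpl3, on chromosome 15 (mm10, 80077791 to 80091868), had 44.8, 61.2, 84.6 and 112 CPM in splenic C26, against 26.3, 41.1, 28.3 and 28.9 CPM in sham. Each splenic C26 library exceeded each sham library, and the log2 fold change was 1.28 ± 0.32 (SE, adjusted p = 0.00501). In subcutaneous C26 it had 103, 82, 36.1 and 86.4 CPM, against 43.5, 39.9, 29.1 and 22 CPM in control. Replicate 3 lay within the control range (1.19 ± 0.32, adjusted p = 0.00767). Among tumour-free libraries Rpl3 was highest in sham replicate 2 and control replicates 1 and 2, where the 10 most abundant genes took 20.3%, 20.9% and 21.7% of counts, against 24.2% to 28.4% in the other 5; subcutaneous C26 replicate 3 had 30.1%. The part of this difference in the Rpl3 values was not tested.

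Rpl3l, on chromosome 17 (mm10, 24727820 to 24736143), had 316, 329, 330 and 253 CPM in splenic C26, against 424, 351, 406 and 440 CPM in sham. It was the 1 member of 84 whose splenic C26 values all lay below sham, as 21.1% of all genes did, but its log2 fold change of -0.40 ± 0.23 did not pass (adjusted p = 0.152). In subcutaneous C26 it had 204, 239, 490 and 256 CPM, against 337, 381, 467 and 486 CPM in control. Replicate 3 was above all control libraries and the other 3 were below them (-0.49 ± 0.23, adjusted p = 0.0859). Without subcutaneous C26 replicate 3 the value was -0.84 with an adjusted p of 0.000458, and Rpl3l also passed as lower in both comparisons under upper-quartile scaling (-0.61 and -0.72) and total counts (-0.61 and -0.71).

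The ratio of the pair averaged lower in the tumour groups, without passing adjustment. Counts of Rpl3l per count of Rpl3 were 7.06, 5.38, 3.9 and 2.27 in splenic C26, against 16.1, 8.53, 14.3 and 15.2 in sham. In subcutaneous C26 they were 1.99, 2.92, 13.6 and 2.96, against 7.73, 9.56, 16.1 and 22.1 in control. All splenic C26 libraries lay below sham, and 3 of 4 subcutaneous C26 libraries lay below control. The log2 ratio averaged 2.1 ± 0.70 in splenic C26 and 3.72 ± 0.42 in sham (SD, n = 4 each), a difference of -1.62 with a two-sided exact permutation p of 0.0286, the smallest that 4 against 4 can give. It averaged 1.97 ± 1.23 in subcutaneous C26 and 3.67 ± 0.69 in control, a difference of -1.70 (exact permutation p = 0.0857). Adjusted over the 21 paralogue ratios tested, these exact p-values became 0.12 and 0.2, and 0 of the 21 passed. Per kilobase of transcript, Rpl3l remained the more abundant of the pair, at 192 CPM per kb against 55.9 for Rpl3 in splenic C26, 254 against 23.1 in sham, 186 against 56.8 in subcutaneous C26 and 261 against 24.9 in control. How reads from the 64% of Rpl3 windows shared with pseudogenes were counted is not known. The level of Rpl3 beside Rpl3l is therefore uncertain.

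**Figure D4:**
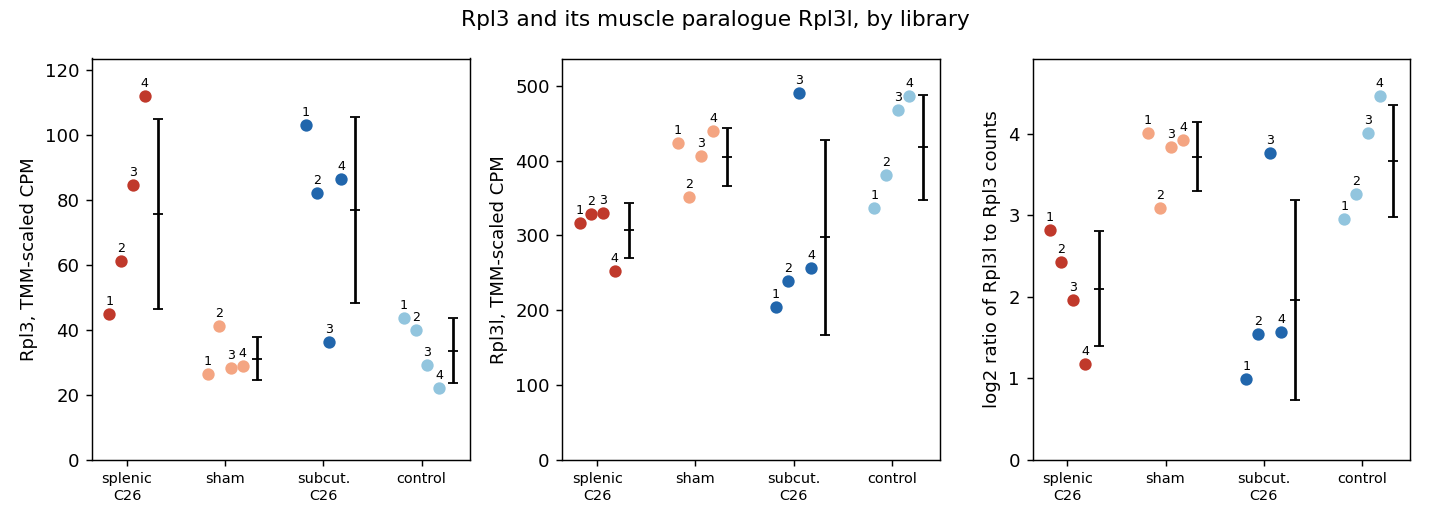
Points are libraries, numbered by replicate, with group mean and SD (n = 4 each). Panels give Rpl3 and Rpl3l in TMM-scaled CPM and the log2 ratio of their counts. All splenic C26 libraries have a lower ratio than sham, and in the subcutaneous C26 group replicate 3 stands with control in each panel, with 36.1 CPM of Rpl3 and 490 CPM of Rpl3l.

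For Rpl7l1, Rps27l and Rpl36al too the paralogue had the smaller fold change of its pair. Rpl7l1, a relative of Rpl7, had 30.4, 32.5, 30.9 and 27.3 CPM in splenic C26, against 31.1, 37.4, 40 and 39 CPM in sham, and 30.4, 25.5, 37.8 and 30.6 CPM in subcutaneous C26, against 34.1, 37.6, 33.1 and 34 CPM in control. Neither comparison passed (log2 fold change -0.28 and -0.16, adjusted p = 0.0608 and 0.285). Under upper-quartile scaling it passed as lower in both (-0.49 and -0.39). Rpl7 itself rose by 0.71 and 0.73, and the log2 ratio of Rpl7l1 to Rpl7 differed by -0.97 and -0.90, with no overlap in either comparison (exact permutation p = 0.0286 each, adjusted p = 0.12).

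Rps27l, which is known as a p53 target in human cells, had 48.8 ± 13.4 CPM in splenic C26, against 39.7 ± 3.84 CPM in sham, and 48.1 ± 2.64 CPM in subcutaneous C26, against 41.6 ± 4.63 CPM in control (SD, n = 4 each). Its log2 fold changes of 0.30 and 0.21 did not pass (adjusted p = 0.137 and 0.299). Relative to Rps27 its log2 ratio differed by -1.91 and -1.80 (exact permutation p = 0.0286 and 0.0571, adjusted p = 0.12 and 0.171). Rpl36al, a retrocopy-derived paralogue of Rpl36a, rose by 0.37 and 0.45, against 0.71 and 0.81 for Rpl36a. The call on Rpl36al in splenic C26 (adjusted p = 0.044) was lost in 19 of 30 alternative settings, and that in subcutaneous C26 (adjusted p = 0.019) in 6 of 30, with upper-quartile scaling (0.21), total counts (0.28) or without subcutaneous C26 replicate 1 or 2 or control replicate 1 or 2 (0.36 to 0.44). Its ratio to Rpl36a differed by -0.32 and -0.35 (exact permutation p = 0.0571 and 0.0286, adjusted p = 0.171 and 0.12).

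Rpl22l1 had a larger fold change than Rpl22 in both models, but the ratio did not pass. Rpl22 had log2 fold changes of 0.77 and 0.80, and the log2 ratio of Rpl22l1 to Rpl22 was higher by 0.50 and 0.37, with overlapping groups (exact permutation p = 0.171 and 0.143, adjusted p = 0.327 and 0.3). Rpl39l, a paralogue of Rpl39 known from testis, was scarcely counted, with 5 to 25 counts per library. Rpl39 had log2 fold changes of 0.42 and 0.39 that did not pass (adjusted p = 0.0796 and 0.11).

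The 8 genes that passed in neither comparison were Rpl3l, Rpl7l1, Rps27l, Rpl39, Rpl39l, Rpl30, Rpl34 and Rps4l. The last 4 of these, with Rps27 and Rpl37rt, had fewer than 200 counts in every library, whereas the other members had at least 280. Rpl30, a large-subunit protein, had 0.383, 0.542, 1.18 and 0.776 CPM in splenic C26, against 0.581, 0.474, 0.482 and 0.617 CPM in sham, and 0.478, 0.381, 0.414 and 0.963 CPM in subcutaneous C26, against 0.41, 0.474, 0.4 and 0.237 CPM in control. Rpl34, also of the large subunit, had 2.2, 3.11, 2.77 and 3.11 CPM in splenic C26, against 2.77, 3.2, 2.49 and 2.64 CPM in sham, and log2 fold changes of 0.01 and -0.025, whose signs change with the settings. Rps4l and Rpl37rt are annotated as transcribed processed pseudogenes in GENCODE M21.

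Many of these genes have processed pseudogenes, so reads could be lost or shared. Over the 82 genes with a coding length, a median of 30.9% of 75-base transcript windows also occurred in another gene; 25 genes exceeded 50%, the highest was Rpl35 with 89.2%, and 4 had 0%. Rpl30 had 65.3% and Rps6 84.1%. Rps20 had 6.55%. Among the 15 genes with at most 10% of windows shared, 9 were higher in each comparison, with median log2 fold changes of 0.66 and 0.62. In splenic C26, 28.1% of all genes and 90.5% of the members were higher, and in subcutaneous C26 27% and 89.3%. The others of these 15 were Rpl3l, Rpl7l1, Rps27l, Rpl39, Rpl39l and Rpl34, which passed in neither comparison. Across 82 genes the shared percentage and the log2 fold change had a Spearman rho of 0.20 and 0.21, as a description only. The sources used here do not say how multiply aligned reads were counted, and levels of genes with many such windows are uncertain.

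The order of levels per kilobase was led by Rpl4, Rplp1, Rps15 and Rpl7a. Their means over all 16 libraries were 455, 443, 391 and 349 CPM per kb, and the lowest were Rpl7l1, Rps27, Rpl34, Rpl39l and Rpl30, at 10.6, 4.2, 2.74, 0.518 and 0.49 CPM per kb. Rpl4, a large-subunit protein that lines the exit tunnel, reached 571 CPM per kb in splenic C26, against 309 in sham, and 610 in subcutaneous C26, against 329 in control, with log2 fold changes of 0.88 and 0.89 (adjusted p = 0.00161 in each). Rps15 of the small subunit rose by 0.69 in splenic C26 and by 0.67 in subcutaneous C26, and Rpl7a rose by 0.85 and 0.93. The order itself was nearly kept, with a Spearman rho of 0.98 between splenic C26 and sham and 0.97 between subcutaneous C26 and control over 82 genes. Per-kb levels differ between genes partly through the lengths taken from the annotation.

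Genes with and without a long pyrimidine run near the annotated start had nearly the same median fold change, which was not tested. The run had to reach to within 10 bases of that start and need not include it. In Eef2 and Tpt1, known as TOP messages, the longest such run was 2 and 4 bases. The split therefore does not separate TOP messages from others. Of the 27 genes with a run of at least 8, 24 were higher in each comparison, with medians of 0.70 and 0.64. Of the 36 with a shorter run, 33 were higher in splenic C26 and 32 in subcutaneous C26, with medians of 0.70 and 0.65.

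The size of the tumour effect did not differ detectably between the models. By edgeR, 0 of 84 members and 0 of 13320 genes passed for the difference between the splenic and the subcutaneous effect, and at an unadjusted p under 0.05 it was 0 members and 851 genes. DESeq2, limma-voom and limma-trend each called 0 members; of all genes DESeq2 called 86 and the other tools 0. The median difference of log2 fold changes was 0.052 over the members and -0.0078 over all genes. A p that misses the threshold does not show that the effects were alike; for Rpl3 the difference was 0.087 ± 0.45 and for Rps6 0.00036 ± 0.26 (SE). In sham against control 0 members passed by any of these tools, 0 at an unadjusted p under 0.05, and by edgeR 1 gene of all 13320 did (0.00751%), with 285 at an unadjusted p under 0.05, against 58 genes called by DESeq2. The members' median was -0.075, against 0.0017 over all genes, and 9 members had sham values wholly below control (2.39% of all genes did), among them Rps20, Rpl10a and Rpl22l1. Rpl30 was the 1 member wholly above, as 2.46% of all genes were.

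Fau and Rack1, which lie outside the naming rule, rose in both comparisons. Fau, whose product is cleaved to the small-subunit protein eS30, had 74.2, 105, 136 and 143 CPM in splenic C26, against 58, 61.3, 55.2 and 60.8 CPM in sham (log2 fold change 0.96, adjusted p = 0.000549), and 111, 110, 82.5 and 110 CPM in subcutaneous C26, against 62.2, 66.7, 57.8 and 54.2 CPM in control (0.78, adjusted p = 0.00212). Rack1, a scaffold on the small subunit listed under its older symbol Gnb2l1, rose by 0.81 and 0.76 (adjusted p = 0.00073 and 0.00116).

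Translation elongation factors and other messages known as TOP-type rose in 19 of 24 cases and fell in 1 in each comparison, with median log2 fold changes of 0.93 and 0.96. Over all genes 28.1% were higher and 23.9% lower in splenic C26, and 27% higher and 23.1% lower in subcutaneous C26. Eef2, which moves the ribosome along the message, had 2114, 3637, 3550 and 3099 CPM in splenic C26, against 1691, 1298, 1506 and 1476 CPM in sham (log2 fold change 1.05, adjusted p = 0.000461), and 3170, 3746, 3157 and 3372 CPM in subcutaneous C26, against 1352, 1277, 1705 and 1679 CPM in control (1.16, adjusted p = 0.00027). The highest of the list were non-coding hosts of small nucleolar RNAs, Snhg12 (3.66 and 2.70) and Snhg1 (3.27 and 2.42). Vim, which encodes the intermediate filament vimentin and is made mainly in mesenchymal cells, fell by 0.97 and 0.96. The elongation factor genes Eef1a1 and Eef1a2 did not pass in either comparison, with log2 fold changes of 0.47 and 0.57 for Eef1a1 and 0.38 in each for Eef1a2, and neither did Tpt1, a growth-linked TOP message, with 0.39 and 0.41.

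Most listed factors that build ribosomes were higher too. Of 47 RNA polymerase I and ribosome biogenesis genes, 38 rose and 1 fell in splenic C26, and 42 rose and 0 fell in subcutaneous C26, with medians of 0.82 and 0.85. Over all genes 28.1% were higher and 23.9% lower in splenic C26, and 27% higher and 23.1% lower in subcutaneous C26. Myc, a transcription factor known to drive ribosome biogenesis, had 27.5, 19.8, 21.3 and 34.9 CPM in splenic C26, against 7.11, 5.25, 5.54 and 4.12 CPM in sham (log2 fold change 2.23, adjusted p = 2.13e-05), and 27.5, 36.1, 20.6 and 27.2 CPM in subcutaneous C26, against 5.28, 5.68, 5.78 and 3.63 CPM in control (2.45, adjusted p = 1.14e-05). Unlike for most ribosomal protein genes, splenic C26 replicate 1 was not the lowest library of its group for Myc. Subcutaneous C26 replicate 3 was the lowest of its group for Myc (20.6 CPM), as it was for most ribosomal protein genes. Taf1d, a subunit of the polymerase I promoter factor SL1, rose by 3.06 and 2.51, and Dkc1, the pseudouridine synthase dyskerin, fell by 0.62 in splenic C26 (adjusted p = 0.0264) and had -0.31 in subcutaneous C26 (adjusted p = 0.24). Of 16 chaperones and import factors of ribosomal proteins, 12 rose and 0 fell in each comparison, with medians of 0.60 and 0.61, led by the histone chaperone Nap1l1 (1.71 and 1.78). These counts too stand beside 28.1% and 27% of all genes higher.

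Regulators of TOP messages and mTORC1 were mixed. Of 27, 13 rose and 5 fell in splenic C26, and 13 rose and 6 fell in subcutaneous C26, with medians of 0.27 and 0.31, where 28.1% of all genes were higher and 23.9% lower in splenic C26, and 27% higher and 23.1% lower in subcutaneous C26. Eif4ebp1, the translation repressor that mTORC1 phosphorylates, had 161, 581, 595 and 601 CPM in splenic C26, against 38.5, 40.7, 38 and 33 CPM in sham (log2 fold change 3.69, adjusted p = 3.14e-05), and 499, 593, 183 and 525 CPM in subcutaneous C26, against 39.2, 33.4, 38.5 and 30.4 CPM in control (3.67, adjusted p = 3.26e-05). Ddit4, an inhibitor of mTORC1, rose by 4.47 and 4.23. Mtor itself rose by 1.5 and 1.04 (adjusted p = 0.000242 and 0.00224) and Larp1 by 1.09 and 1.11 (adjusted p = 0.00106 and 0.001). Sesn3 and Deptor, which also restrain mTORC1, fell by 1.72 and 1.5 in splenic C26 and by 1.90 and 1.19 in subcutaneous C26. Rps6kb1, the S6 kinase, did not pass (0.42 and 0.18, adjusted p = 0.0552 and 0.415).

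In the p53 checkpoint list, 7 of 13 genes rose and 2 fell in splenic C26, and 9 rose and 2 fell in subcutaneous C26, with medians of 0.58 and 0.71. Over all genes 28.1% were higher and 23.9% lower in splenic C26, and 27% higher and 23.1% lower in subcutaneous C26. Cdkn1a, the cell cycle inhibitor p21, rose by 4.53 and 3.33 (adjusted p = 0.000165 and 0.000741), and Ccng1, cyclin G1, fell by 1.28 and 0.97 (adjusted p = 0.00993 and 0.0375). Trp53 did not pass in either comparison (-0.025 and 0.19), and Mdm2 passed in subcutaneous C26 with 0.39 (adjusted p = 0.0142) and had 0.17 in splenic C26 (adjusted p = 0.234). Of 14 ribosome quality control and rescue genes, 12 rose in splenic C26 and 10 in subcutaneous C26, and 0 fell in either, with medians of 0.59 and 0.81. These counts stand beside the same shares over all genes, 28.1% and 27% higher. Nufip1, a receptor for the autophagy of ribosomes, rose by 1.48 and 1.04.

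Genes of the mitochondrial ribosomal proteins, which serve the separate ribosome of that organelle, had small median fold changes. Of 77, 15 rose and 18 fell in splenic C26, with a median log2 fold change of -0.024, and 10 rose and 21 fell in subcutaneous C26, with a median of -0.12. Over all genes 28.1% were higher and 23.9% lower in splenic C26, and 27% higher and 23.1% lower in subcutaneous C26. Mrpl41 rose by 1.03 and 1.05 and Mrps18b by 1.07 and 0.71, whereas Mrpl19 fell by 1.36 in each comparison and Mrps11 by 1.25 and 1.10.

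**Figure D5:**
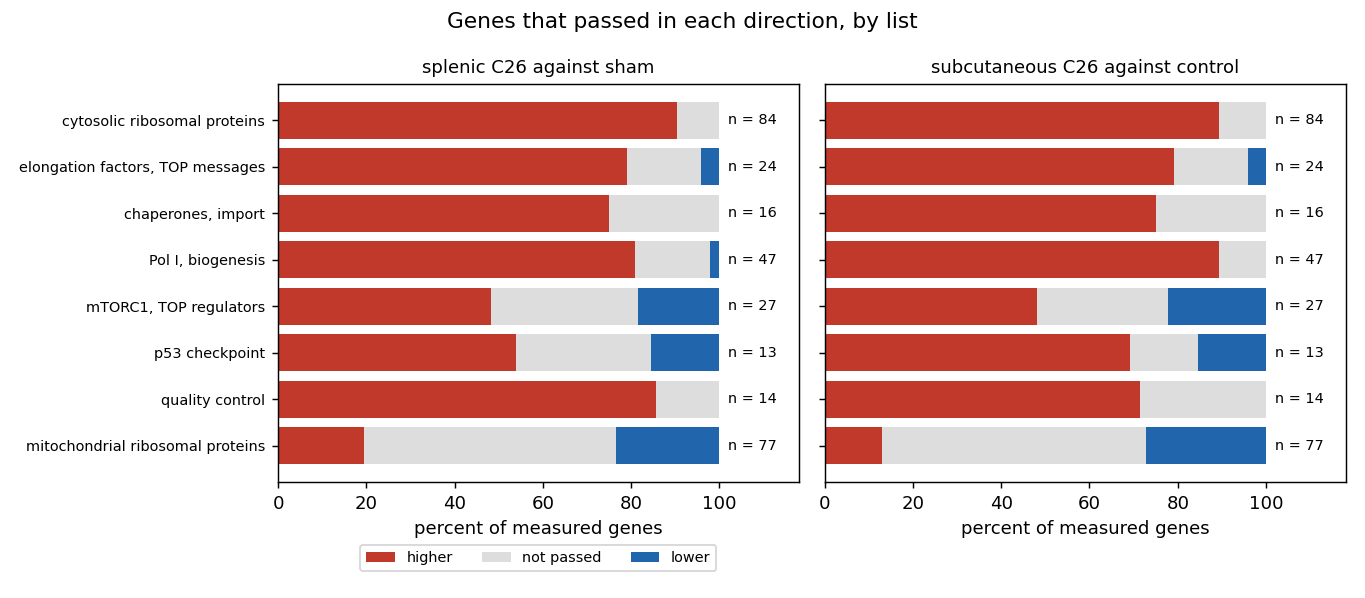
Bars give the percent of measured genes of each list that were higher, did not pass, or were lower at an adjusted p under 0.05, for splenic C26 against sham on the left and subcutaneous C26 against control on the right, with the number of genes beside each bar. The 84 cytosolic ribosomal protein genes were higher in 90.5% and 89.3% of cases, whereas most of the 77 mitochondrial ones did not pass.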

How the data were processed

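The deposited counts are raw reads per gene symbol, which the authors made with STAR and featureCounts, per the labels; the submitters' processing notes name FastQC, STAR, edgeR and mm10 without versions. The second table holds log2 values that the authors deposited, used only as an alternative. The sources used here give neither annotation nor strand setting, so overlapping and antisense genes cannot be told apart. Blank lines without a gene or values (4013) were left out, and filterByExpr removed 0 genes.

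Differences were tested in R 4.3.3 by edgeR 4.0.16 (quasi-likelihood, robust, TMM scaling, all 16 libraries with 1 mean per group, Benjamini-Hochberg adjustment over 13320 genes, threshold 0.05), tested on simulated data first. The simulation changed a small part of the genes, in splenic C26 only, up and down alike. It does not show how the scaling behaves where 52% of genes passed in splenic C26 and 50% in subcutaneous C26. Paralogue ratios used log2 of counts with 0.5 added and exact permutation tests in SciPy 1.17.1. Alternatives were DESeq2 1.42.0, limma 3.58.1, other scalings, filters and thresholds, and left-out libraries. Windows and coding sequences came from GENCODE M21, with Biopython 1.88 for alignment, and promoters from RefSeq. Totals of 25.9 to 34.9 M counts set the precision, which is lowest for the 6 members under 200 counts.

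The members and lists were chosen with earlier results of these data known. Named were Rpl3, Rpl3l, all paralogue pairs, stalk proteins, Rpsa, Rpl5, Rpl11, Rps6, the 5 highest and 5 lowest fold changes per tumour comparison, the 5 highest and 5 lowest levels per kb, members that did not pass, up to 2 list genes each way, and 14 fixed genes; a few genes these choices name are not reported here.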

Additional observations from a re-analysis of the deposited data

Results flagged for a closer look

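Within groups of 4 libraries, 12 of 152 groups held a library far from the others (by Dixon's test of the gap over the range), where chance alone flags about 1 in 20. Subcutaneous C26 replicate 3 stood apart with 4.31 CPM of Rpl34 (the others 2.7 to 2.96), 136 CPM of Rpl5 (181 to 189) and a log2 ratio of Rps27l to Rps27 of 5.47 (3.81 to 3.96). Splenic C26 replicate 1 stood apart with 226 CPM of Rpl7 (the others 346 to 370), 260 CPM of Rpl7a (435 to 459) and 0.638 CPM of Rpl39l (0.272 to 0.289). Subcutaneous C26 replicate 4, which carried red blood cell and proliferation markers, had 0.963 CPM of Rpl30 (the others 0.381 to 0.478). In sham, replicate 2 had a log2 ratio of Eef1a2 to Eef1a1 of 0.95 (the others 1.80 to 1.94) and a member share of 1.08% of counts (0.966% to 0.983%), and replicate 1 had a log2 ratio of Rpl7l1 to Rpl7 of -2.73 (-2.36 to -2.30). In control, replicate 1 had 100 CPM of Rps20 (the others 110 to 111) and replicate 4 had 0.474 CPM of Rps4l (1.41 to 1.54). Their causes were not tested.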

How the results depend on the processing

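No paired analysis was possible because the labels give no replicate numbers that groups share. The count of higher members ran over 52 to 78 in splenic C26 and 50 to 77 in subcutaneous C26 over 15 settings, and over 68 to 78 and 62 to 76 when any library was left out. Lower members, 0 in the main results, were 2 in each comparison with upper-quartile scaling or without the 2 intermediate tumour libraries, 2 and 1 with total counts only, 1 and 1 with the 5-CPM filter, 0 and 1 with limma-voom and with limma-trend, and 0 to 2 and 0 to 1 with a library left out; in each of these settings they were Rpl3l, Rpl7l1 or both. With a denominator without the 10 most abundant genes the members took 1.75% in splenic C26, 1.31% in sham, 1.84% in subcutaneous C26 and 1.35% in control. Signs turned for low or flat genes. Rpl34 in splenic C26 became -0.21 (upper-quartile), -0.23 (total counts) and -0.0016 (limma-voom), and it ranged over -0.045 to 0.12 with a library left out, below 0 without splenic C26 replicate 2 or 4 or sham replicate 3 or 4. In subcutaneous C26 it became 0.003 without the 4 libraries that the earlier analysis named for other-tissue transcripts. With a library left out it ranged over -0.20 to 0.043 there, above 0 without subcutaneous C26 replicate 2 (0.011) or control replicate 4. Rpl39l in subcutaneous C26 became -0.23 (upper-quartile), -0.006 (TMM without these genes), -0.20 (total counts) and -0.011 (without Rn45s), and ranged over -0.34 to 0.34 with a library left out. Rps27l in subcutaneous C26 became -0.034 (upper-quartile), and Rps4l in splenic C26 ranged over -0.55 to 0.20 with a library left out, above 0 without sham replicate 2. The cause was not tested. Of 1730 values of single genes under the alternatives, 1639 kept sign and side of the threshold, 36 lost and 33 gained a call, and 22 changed sign. Members under 200 counts limit what this depth can show.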
